A study of Homo sapiens with 18 samples.

Results

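The 10 BCL2 family regulators of apoptosis described here were taken by name from the 58302 genes of the expression tables: 3 survival genes (BCL2, BCL2L1, MCL1), 5 BH3-only genes (BIK, BMF, BCL2L11, PMAIP1, BBC3) and 2 effector genes (BAX, BAK1). The choice was made with earlier results of these data known. They were measured by RNA sequencing in 18 libraries of 3 human lung cancer cell lines, EBC-1, which carries MET amplification, and PC-9 and HCC827, which each carry an EGFR exon 19 deletion. In each line, cells stably carrying a lentiviral shRNA against SYK (shSYK) were set against cells with the corresponding negative control (nc), and each group had 3 libraries. SYK is a cytoplasmic tyrosine kinase, and the study asked what its loss does to cells that respond to MET or EGFR inhibitors. A single shRNA clone was used, and all groups are stable lines. The labels do not say whether the replicates were separate cultures, so every p-value measures only the spread between these libraries, which may be technical.

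The BCL2 family decides whether the outer mitochondrial membrane is opened during apoptosis. Survival proteins such as BCL2, BCL-XL (encoded by BCL2L1) and MCL1 hold the effectors BAX and BAK in check, and BH3-only proteins, among them BIK, BMF, BIM (encoded by BCL2L11), NOXA (encoded by PMAIP1) and PUMA (encoded by BBC3), bind and block the survival proteins or engage the effectors directly. In lung cancer cells that depend on a mutated or amplified receptor kinase, BIM, BMF and PUMA are known to be held down by kinase signalling and to mediate cell death when the kinase is inhibited.

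Expression is given in FPKM (fragments normalised to gene length and to a factor per library, computed by the authors separately for each line). How this library factor was defined is not given in the sources used here. A gene was tested in a line when its mean FPKM over the 6 libraries was at least 1, and it was counted as changed when its Benjamini-Hochberg adjusted p in limma, over all genes tested in that line, was under 0.05. All log2 fold changes are shSYK minus nc on the log2(FPKM + 1) scale, which understates the change of low genes. BCL2L1, BCL2L11 and MCL1 each make isoforms with different activities, and values per gene cannot separate them. In RNA from a whole culture, fewer cells that express a gene and less RNA per cell cannot be told apart.

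Between 7920099 and 15729103 reads per library lay on genes. The library factor behind the FPKM, divided by these reads, was 0.969 to 1.008 in nc and 1.034 to 1.072 in shSYK libraries of EBC-1. In HCC827 it was 0.898 to 0.943 in nc and 0.948 to 0.980 in shSYK libraries. PC-9 libraries had 0.883 to 1.071 in nc and 0.948 to 0.991 in shSYK. SYK itself fell in all 3 lines, with 32.9% of the nc level remaining in HCC827, 32.1% in PC-9 and 52.3% in EBC-1 (limma adjusted p = 0.000197, 0.00733 and 0.000271). PC-9 nc 1 and nc 2 stood apart from each other, the chi-square of their reads divided by its degrees of freedom being 38.7, against 2.11 to 14.3 for the other pairs of replicates, and the member fold changes in PC-9 are given with and without each of them. In EBC-1, summed FPKM was 267243 to 280477 in nc and 247177 to 253541 in shSYK libraries, so that rescaling each library to an equal sum raised the median log2 fold change of all genes by 0.107. Mitochondrial genes took 2.23 to 2.51% of reads in nc and 1.89 to 1.93% in shSYK libraries there. The epithelial markers EPCAM, KRT8, KRT18, KRT19, CDH1, KRT7 and CLDN4 were above 1 FPKM in 18 of 18 libraries, and the leukocyte and fibroblast markers PTPRC, CD3E, DCN and LUM were at most at 0.144 FPKM. COL1A1, a collagen gene of fibroblasts, was at 0.945 to 8.29 FPKM, and the endothelial genes PECAM1 and CDH5 were above 1 FPKM in 6 libraries. Of these 7 epithelial markers, 5 fell in EBC-1, where their summed FPKM was 2072 to 2370 in nc and 1519 to 1637 in shSYK libraries, 3 fell in HCC827 (4497 to 4959 and 3839 to 4521) and 0 were called by limma in PC-9, where 1 had an unadjusted p under 0.05 and limma-voom on reads called 0. Of the 9 markers of other cell types, PECAM1 alone passed the test, and in PC-9 alone, at 13.4 ± 0.903 FPKM in nc and 4.98 ± 0.601 in shSYK (SD, n = 3), a call lost without shSYK 1, and the summed FPKM of the 9 in PC-9 was 21.0 to 25.5 in nc and 13.5 to 16.2 in shSYK. The part of these shifts in the member results was not tested.

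The files place the survival genes BCL2 (ENSG00000171791) on the minus strand of chromosome 18 from 63123346 to 63320128, BCL2L1 (ENSG00000171552) on the minus strand of chromosome 20 from 31664452 to 31723989 and MCL1 (ENSG00000143384) on the minus strand of chromosome 1 from 150574551 to 150579738. Of the BH3-only genes they place BIK (ENSG00000100290) on the plus strand of chromosome 22 from 43110748 to 43129712, BMF (ENSG00000104081) on the minus strand of chromosome 15 from 40087890 to 40108892 and BCL2L11 (ENSG00000153094) on the plus strand of chromosome 2 from 111119378 to 111168447. They place the other BH3-only genes PMAIP1 (ENSG00000141682) on the plus strand of chromosome 18 from 59899948 to 59904306 and BBC3 (ENSG00000105327) on the minus strand of chromosome 19 from 47220822 to 47232766. The effector genes are BAX (ENSG00000087088) on the plus strand of chromosome 19 from 48954815 to 48961798 and BAK1 (ENSG00000030110) on the minus strand of chromosome 6 from 33572547 to 33580293. These coordinates are in hg38, the build the study's methods name.

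Sequence just upstream of BMF and BBC3 is shown because these were the members with the largest falls. RefSeq promoter entries (GRCh38.p14) were held for 8 of the 10 members, and MCL1 and BIK had none. The 250 bases before each start were searched on both strands for 4 motifs: GGGCGG (the GC box read by SP1), TGANTCA (AP-1), GTAAACA (FOXO) and CACGTG (E-box). Capitals mark the matches, and the stretches below leave out the bases that lie inside the gene as the tables annotate it (13 for BMF and 99 for BBC3).

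BMF, chr15:40108893-40109129, minus strand: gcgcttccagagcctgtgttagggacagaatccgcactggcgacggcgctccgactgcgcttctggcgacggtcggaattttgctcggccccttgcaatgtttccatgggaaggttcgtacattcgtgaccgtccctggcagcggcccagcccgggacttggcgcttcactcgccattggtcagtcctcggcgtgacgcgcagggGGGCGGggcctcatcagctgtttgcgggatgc

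BBC3, chr19:47232767-47232917, minus strand: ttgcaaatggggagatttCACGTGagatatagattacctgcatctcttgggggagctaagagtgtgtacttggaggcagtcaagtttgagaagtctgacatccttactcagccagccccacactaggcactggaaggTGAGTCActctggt

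The stretch upstream of BMF was 64.6% GC and that upstream of BBC3 49.0% GC. BMF held 1 GC box at -45, counted from the RefSeq start with -1 as the base before it, and this motif was found in 42.6% of the 35116 promoters of the same length. BBC3 held an AP-1 motif at -113 and an E-box at -232, found in 6.57% and 6.34% of promoters. The motifs did not overlap, and a match describes letters only, not binding. BMF has a further RefSeq start downstream, and none of the 4 motifs was found in the 250 bases before it. Of the other promoters searched, BCL2L11 held 3 GC boxes, PMAIP1 4, BAK1 2 and BAX 1, BAX also held 4 E-boxes, and BCL2L11 1 FOXO motif (found in 2.98% of promoters).

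In total, 9 of the 10 members passed the filter on low values in each line, BCL2 being the exception, which gave 27 tests of a member in a line. Of these, 9 passed the threshold, and 5 of the 9 calls held under every alternative processing that was run: BMF and BBC3 fell and MCL1 rose in EBC-1, and BMF fell and BIK rose in HCC827. In EBC-1, 4 of 9 members were called, 1 that rose and 3 that fell, where 44.7% of all genes tested were called, 23.1% as risen and 21.6% as fallen. In PC-9, 1 of 9 members was called, a fall, where 2.09% of all genes were called, 0.678% as risen and 1.41% as fallen. In HCC827, 2 members rose and 2 fell, where 38.0% of all genes were called, 17.2% as risen and 20.7% as fallen. The share of members called was near that of all genes in EBC-1 and HCC827. The HCC827 count was 2 when nc 1, shSYK 2 or shSYK 3 was left out, and the PC-9 count was 0 without nc 3 or any 1 of the shSYK libraries and 2 without nc 2. The nc and shSYK libraries did not overlap for 4, 4 and 6 of the 9 members in EBC-1, PC-9 and HCC827, against 56.9%, 23.7% and 52.3% of all genes. The median log2 fold change of the 9 members was -0.14 in HCC827, 0.04 in PC-9 and -0.19 in EBC-1, beside -0.01, 0.01 and 0.01 over all genes tested.

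The split of all calls in EBC-1 moved with the scaling, from 2876 risen and 2686 fallen genes to 4019 and 1901 after rescaling to an equal sum and 3874 and 2271 with limma-voom on reads. In HCC827 it moved from 2066 and 2488 to 2482 and 1905 and to 3022 and 2171. In PC-9 it moved from 82 and 171 to 611 and 760 with GC and length trends removed. The 5 member calls named as held kept their direction and passed the threshold under each of these.

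**Figure D1:**
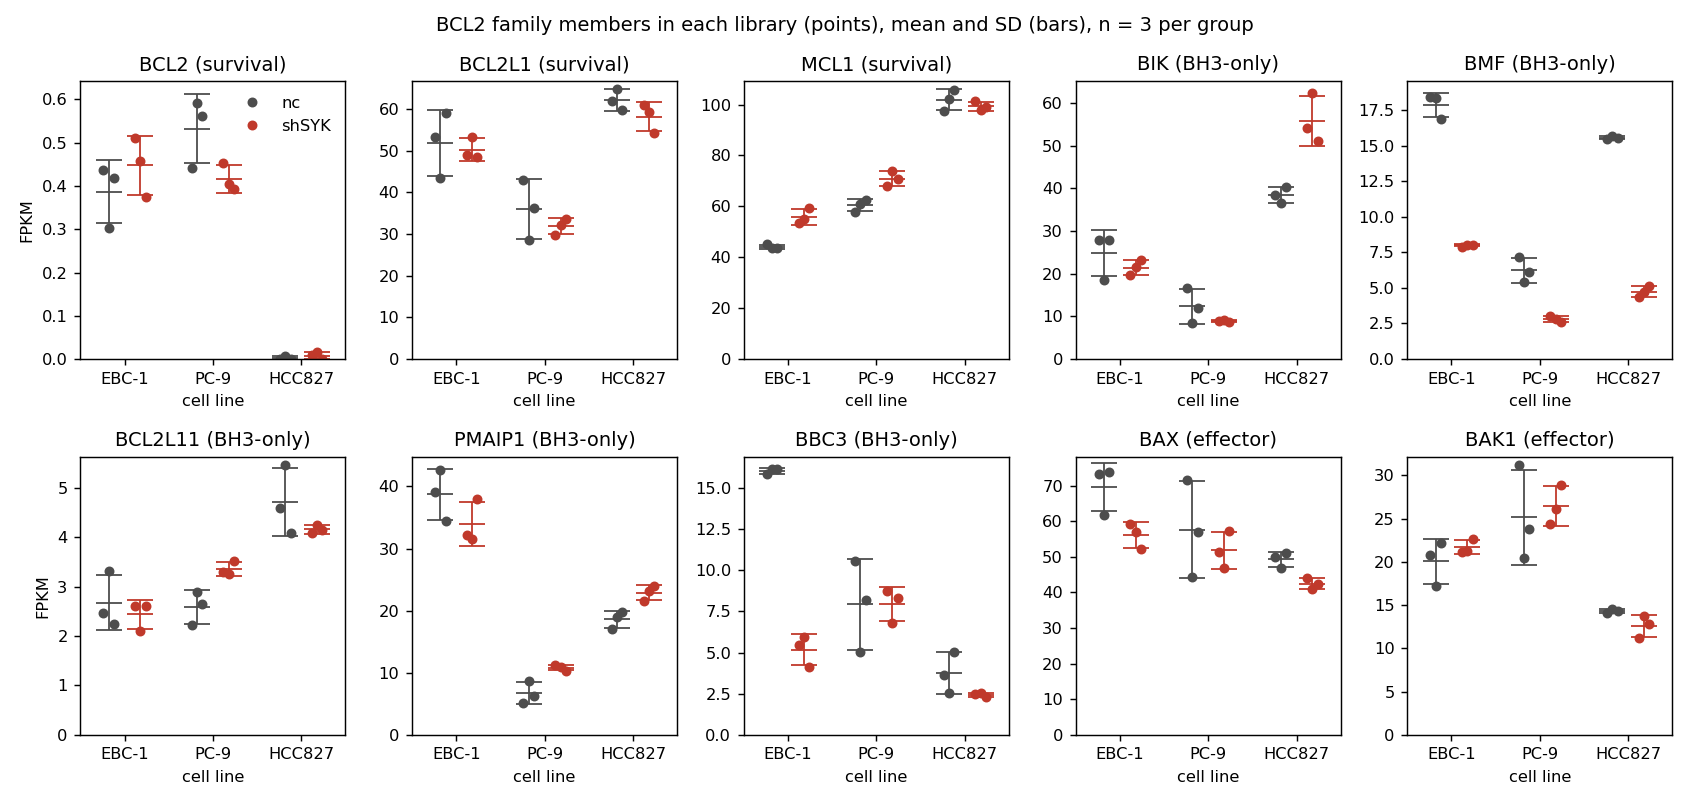
FPKM (linear axes from 0) of the 10 members in each of 18 libraries, by cell line, with nc in grey and shSYK in red; points are libraries, bars the mean and SD of 3. BMF is lower in every shSYK library than in any nc library of its line, mean BBC3 goes from 16.0 to 5.17 FPKM in EBC-1, and BCL2 is close to 0 in HCC827.

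Of the survival genes, BCL2 was barely expressed. In EBC-1 its FPKM was 0.438, 0.303 and 0.418 in nc and 0.510, 0.458 and 0.375 in shSYK libraries, and in PC-9 it was 0.442, 0.592 and 0.563 in nc and 0.454, 0.404 and 0.394 in shSYK libraries. The groups overlapped in both lines, with 43 to 98 reads behind each value. In HCC827, BCL2 had 0, 1 and 0 reads in nc and 1, 2 and 0 in shSYK libraries, all under the floor of 3 reads, so no fold is given. When the filter on low values was left off, the limma adjusted p for BCL2 was 0.662 in EBC-1 and 0.728 in PC-9.

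BCL2L1, which encodes the survival protein BCL-XL, was among the most abundant members and was called in no line. In EBC-1 its FPKM was 53.2, 43.4 and 59.1 in nc and 49.0, 53.4 and 48.5 in shSYK libraries, with a log2 fold change of -0.03 (95% confidence interval -0.30 to 0.23), whose sign turned under 5 of 17 alternatives. PC-9 libraries held 43.1, 28.7 and 36.3 in nc and 29.9, 32.1 and 33.7 in shSYK (-0.15, interval -0.52 to 0.21), and the difference was -0.02 without nc 1 and -0.30 without nc 2. The groups overlapped in every line, and the spread of nc in PC-9 was wide, with nc 1 high and nc 2 low. In HCC827 the values were 61.9, 64.9 and 59.7 in nc and 61.0, 59.4 and 54.2 in shSYK (-0.10, interval -0.24 to 0.05, with the opposite sign once GC and length trends were removed).

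MCL1, a short-lived survival protein that binds NOXA and BIM, rose in EBC-1. Its FPKM there was 45.1, 43.6 and 43.5 in nc and 53.6, 54.9 and 59.5 in shSYK libraries, so that every shSYK library was above every nc library. The mean went from 44.1 ± 0.876 to 56.0 ± 3.12 (SD, n = 3), which is 0.34 on the log2 scale (SE 0.0652, limma adjusted p = 0.00537), and the call held under 17 of 17 alternatives. In PC-9, MCL1 was at 57.8, 61.1 and 62.4 in nc and 68.1, 73.8 and 70.9 in shSYK libraries, again without overlap, but the difference of 0.23 (interval -0.005 to 0.46) did not pass the test within the line (limma adjusted p = 0.332). It was 0.20 without nc 1 and 0.24 without nc 2, and it passed when the spread was estimated from all 18 libraries (limma adjusted p = 0.0254). HCC827 had the highest MCL1, at 97.5, 102.3 and 105.9 in nc and 101.3, 97.8 and 99.1 in shSYK libraries, with overlapping groups and a difference of -0.03 (interval -0.16 to 0.09) whose sign turned under 3 scalings.

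Among the BH3-only genes, BMF was called in all 3 lines. BMF is held at the cytoskeleton in healthy cells and binds survival proteins when released. In EBC-1 its FPKM was 18.4, 18.3 and 16.9 in nc and 7.90, 8.04 and 8.05 in shSYK libraries. The groups were far apart, with a mean of 17.9 ± 0.853 in nc and 7.99 ± 0.0784 in shSYK (SD, n = 3), so that 44.7% remained (log2 fold change -1.07, SE 0.0647, limma adjusted p = 6.92e-05).

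HCC827 showed the largest BMF fall. Its libraries held 15.4, 15.7 and 15.5 FPKM in nc and 4.34, 4.71 and 5.14 in shSYK, with means of 15.6 ± 0.118 and 4.73 ± 0.404 (SD, n = 3). Here 30.4% of the nc level remained (log2 fold change -1.53, SE 0.0656, limma adjusted p = 3.25e-05). The EBC-1 and HCC827 calls each held under 17 of 17 alternatives, and 236 to 1381 reads lay behind each value in these lines.

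In PC-9, BMF started lower, at 7.15, 5.42 and 6.13 FPKM in nc, and stood at 3.00, 2.85 and 2.61 in shSYK libraries. The groups did not overlap, the mean went from 6.23 ± 0.870 to 2.82 ± 0.199 (SD, n = 3) and 45.2% remained (log2 fold change -0.92, SE 0.115, limma adjusted p = 0.0132). The direction of BMF in PC-9 held in every alternative that tested it. The call was lost with no filter on low values (limma adjusted p = 0.0607) and without nc 3, shSYK 1, shSYK 2 or shSYK 3 (0.102, 0.0945, 0.0980 and 0.0959), and it held without nc 1 (-0.83, limma adjusted p = 0.00683) and without nc 2 (-0.999, limma adjusted p = 0.00815), the libraries that stood apart. BMF was the only one of the 9 tested members called as fallen in all 3 lines, as were 36 of the 10030 genes tested in all 3 (0.359%).

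BBC3, whose product PUMA is a BH3-only protein induced by stress pathways, fell in EBC-1. Its FPKM was 15.8, 16.1 and 16.1 in nc and 5.43, 5.94 and 4.14 in shSYK libraries. The means were 16.0 ± 0.174 and 5.17 ± 0.929 (SD, n = 3), with 32.3% remaining (log2 fold change -1.48, SE 0.112, limma adjusted p = 0.000161), and the call held under 17 of 17 alternatives. In PC-9 the groups overlapped, with 10.6, 5.06 and 8.20 in nc and 8.77, 6.77 and 8.30 in shSYK libraries (0.04, interval -0.49 to 0.58), and the value was 0.25 without nc 1, -0.21 without nc 2 and -0.02 without shSYK 1. In HCC827, BBC3 was low, at 3.65, 2.54 and 5.05 in nc and 2.49, 2.51 and 2.28 in shSYK libraries, from 79 to 173 reads. These groups did not overlap by a narrow margin, and the difference of -0.44 (interval -0.85 to -0.03) did not pass the test (limma adjusted p = 0.0868) except without nc 2 (0.0123).

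BMF overlaps its antisense gene BMF-AS1, and BBC3 overlaps the microRNA genes MIR3190 and MIR3191. Whether reads were counted by strand is not given in the sources used here, so reads of these partners could not be told apart from those of the members.

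BIK, a BH3-only protein of the endoplasmic reticulum, rose in HCC827. Its libraries held 38.5, 36.5 and 40.2 FPKM in nc and 54.1, 62.5 and 51.1 in shSYK, with every shSYK library above every nc library. The mean went from 38.4 ± 1.84 to 55.9 ± 5.88 (SD, n = 3), which is 0.53 on the log2 scale (SE 0.0813, limma adjusted p = 0.00284), and the call held under 17 of 17 alternatives. EBC-1 and PC-9 showed values on the other side of 0 that did not pass. In EBC-1 BIK was at 28.0, 18.6 and 28.0 in nc and 19.6, 21.5 and 23.2 in shSYK libraries (-0.18, interval -0.55 to 0.18, limma adjusted p = 0.365), where nc 2 was the lowest of the 6 and its removal gave -0.37 (limma adjusted p = 0.0110). The EBC-1 value was -0.09 without nc 1 (limma adjusted p = 0.715), -0.09 without nc 3 (0.706), -0.06 after rescaling to an equal sum (0.759) and -0.01 with GC and length trends removed (0.961). PC-9 libraries held 16.8, 8.58 and 11.9 in nc and 9.03, 9.14 and 8.79 in shSYK libraries (-0.38, interval -0.86 to 0.10), with nc 2 again the lowest of the 6. The PC-9 difference was -0.15 without nc 1 (limma adjusted p = 0.500) and -0.60 without nc 2 (0.0617).

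PMAIP1, which encodes the MCL1-binding protein NOXA, rose in HCC827 by a small amount. It was at 17.0, 19.0 and 19.8 FPKM in nc and 21.6, 23.1 and 23.9 in shSYK libraries, without overlap (means 18.6 ± 1.41 and 22.9 ± 1.17, SD, n = 3, log2 fold change 0.29, SE 0.0707, limma adjusted p = 0.0165). This call was lost in 5 of 17 alternatives: the fit of all 18 libraries (limma adjusted p = 0.117), removal of GC and length trends (0.0782), and without nc 1 (0.0516), shSYK 2 (0.0544) or shSYK 3 (0.0597). Of the 3 lines, the largest difference of PMAIP1 was in PC-9, from 5.19, 8.70 and 6.22 in nc to 11.2, 10.9 and 10.3 in shSYK libraries. The groups did not overlap and shSYK stood at 161.0% of nc, yet the difference of 0.64 (SE 0.163, interval 0.26 to 1.02) did not pass within the line (limma adjusted p = 0.108). It passed in the fit of all 18 libraries (limma adjusted p = 0.00468), with GC and length trends removed (0.0443) and without nc 2 (0.82, limma adjusted p = 0.0116), the highest nc library, and not without nc 1 (0.49, limma adjusted p = 0.0752). EBC-1 libraries held 39.2, 42.6 and 34.4 in nc and 32.2, 31.5 and 38.0 in shSYK, overlapping, with a difference of -0.18 (limma adjusted p = 0.183) that passed only with GC and length trends removed (-0.36, limma adjusted p = 0.00606).

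BCL2L11, which encodes the broadly binding BH3-only protein BIM, was low in all lines and called in none. In EBC-1 it was at 2.47, 3.31 and 2.24 FPKM in nc and 2.60, 2.11 and 2.61 in shSYK libraries (-0.09, interval -0.39 to 0.21, with a sign that turned under 2 of 16 alternatives). PC-9 libraries held 2.22, 2.88 and 2.65 in nc and 3.29, 3.25 and 3.52 in shSYK, the only line without overlap (0.28, interval 0.04 to 0.53, limma adjusted p = 0.255), and the difference was 0.21 without nc 1 and 0.34 without nc 2. In HCC827 the values were 4.59, 5.46 and 4.08 in nc and 4.07, 4.25 and 4.14 in shSYK libraries (-0.14, interval -0.36 to 0.08). Between 122 and 427 reads lay behind each value.

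The effectors BAX and BAK1 encode the proteins that form pores in the outer mitochondrial membrane. BAX fell slightly in EBC-1, from 73.3, 61.9 and 73.7 FPKM in nc to 59.4, 56.9 and 52.2 in shSYK libraries (means 69.7 ± 6.73 and 56.2 ± 3.63, SD, n = 3, log2 fold change -0.30, SE 0.0898, limma adjusted p = 0.0281). It also fell in HCC827, from 50.1, 47.0 and 51.0 in nc to 43.99, 41.1 and 42.4 in shSYK libraries (means 49.3 ± 2.12 and 42.5 ± 1.44, SD, n = 3, log2 fold change -0.21, SE 0.0554, limma adjusted p = 0.0212). The groups did not overlap in either line. The calls were lost in 9 and 8 of 17 alternatives. With GC and length trends removed the differences were -0.04 in EBC-1 (limma adjusted p = 0.389) and -0.02 in HCC827 (0.740), BAX being 60.6% GC. After rescaling to an equal sum they were -0.17 (0.0914) and -0.15 (0.0747). Without nc 1, nc 3, shSYK 2 or shSYK 3 the call was also lost in each of the 2 lines (limma adjusted p from 0.0583 to 0.106). In PC-9, BAX was at 71.6, 44.3 and 56.9 in nc and 51.4, 47.0 and 57.4 in shSYK libraries, with the shSYK range inside that of nc (-0.13, interval -0.55 to 0.30), and the difference was 0.04 without nc 1 and -0.30 without nc 2.

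BAK1 was called in no line. Its FPKM in EBC-1 was 20.8, 17.2 and 22.2 in nc and 21.2, 21.3 and 22.6 in shSYK libraries (0.12, interval -0.11 to 0.34), and this passed only with GC and length trends removed (0.35, limma adjusted p = 0.00707). PC-9 libraries held 31.2, 20.5 and 23.8 in nc and 24.4, 26.1 and 28.9 in shSYK libraries (0.09, interval -0.29 to 0.46), and the difference was 0.25 without nc 1 and -0.04 without nc 2. HCC827 libraries held 14.1, 14.6 and 14.4 in nc and 11.2, 13.8 and 12.8 in shSYK. That line alone showed no overlap for BAK1, with a difference of -0.18 (interval -0.36 to -0.004, limma adjusted p = 0.0987).

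**Figure D2:**
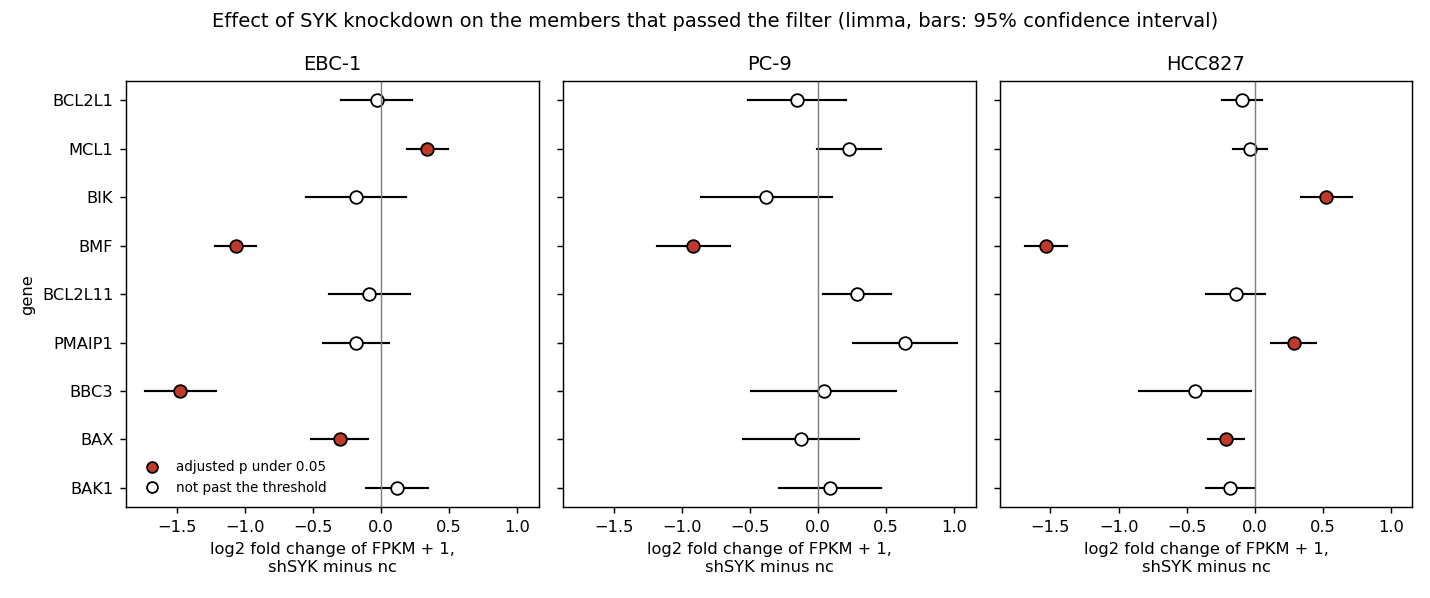
Log2 fold change of FPKM + 1 (x axis, shSYK minus nc) with its 95% confidence interval for the 9 tested members (rows) in each cell line, from limma; filled points have an adjusted p under 0.05. BMF lies left of 0 in all 3 panels, at -1.07, -0.92 and -1.53, BBC3 reaches -1.48 in EBC-1, and MCL1 (EBC-1), BIK and PMAIP1 (HCC827) are the filled points right of 0.

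Whether SYK knockdown acted differently on a member in different lines was tested as a difference of log2 fold changes in a limma fit of all 18 libraries. The differences that passed involved 2 of 9 members for EBC-1 against PC-9 (19.8% of all genes tested passed), 3 of 9 for EBC-1 against HCC827 (21.8%) and 2 of 9 for PC-9 against HCC827 (7.5%). The log2 fold change of BBC3 in EBC-1 differed from that in PC-9 by -1.52 (SE 0.287, limma adjusted p = 0.00172) and from that in HCC827 by -1.04 (SE 0.287, limma adjusted p = 0.0170). The fall of BMF was larger in HCC827 than in EBC-1 by 0.46 (SE 0.115, limma adjusted p = 0.00871) and than in PC-9 by 0.62 (limma adjusted p = 0.00290), while EBC-1 and PC-9 differed by -0.15 (interval -0.40 to 0.09). MCL1 differed between EBC-1 and HCC827 by 0.37 (SE 0.0863, limma adjusted p = 0.00576). PMAIP1 differed between EBC-1 and PC-9 by -0.82 (SE 0.183, limma adjusted p = 0.00510). These 6 differences passed under all 23 alternatives run for them.

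BIK differed between PC-9 and HCC827 by -0.90 (SE 0.251, limma adjusted p = 0.0380), but 12 of 23 alternatives put it over the threshold, among them no filter on low values and each library of the 2 lines left out in turn except HCC827 shSYK 3, PC-9 nc 1 and PC-9 nc 2, and also EBC-1 shSYK 2. The highest limma adjusted p was 0.0972, without HCC827 shSYK 2. The same test between EBC-1 and HCC827 gave -0.71 (interval -1.24 to -0.18, limma adjusted p = 0.0547) and passed in 5 of 23 alternatives, without EBC-1 nc 2, PC-9 nc 1 or PC-9 nc 2 among them. The difference of PMAIP1 was -0.47 between EBC-1 and HCC827 (limma adjusted p = 0.0785), which passed only without PC-9 nc 1 (0.0280) or PC-9 nc 2 (0.0154), and 0.35 between PC-9 and HCC827 (limma adjusted p = 0.308), which passed only without PC-9 nc 2 (0.0308). Differences for BCL2L1, BCL2L11, BAX and BAK1 passed for no pair of lines with all libraries and the main processing. In the alternatives, BCL2L11 passed for EBC-1 against PC-9 with quantile normalization (limma adjusted p = 0.0441), and BAK1 passed for EBC-1 against HCC827 after rescaling to an equal sum (0.0431) and for PC-9 against HCC827 without PC-9 nc 1 (0.0456). The largest of these were those of BCL2L11, at -0.37 between EBC-1 and PC-9 (interval -0.71 to -0.04, limma adjusted p = 0.108) and 0.43 between PC-9 and HCC827 (interval 0.09 to 0.76, limma adjusted p = 0.124).

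**Figure D3:**
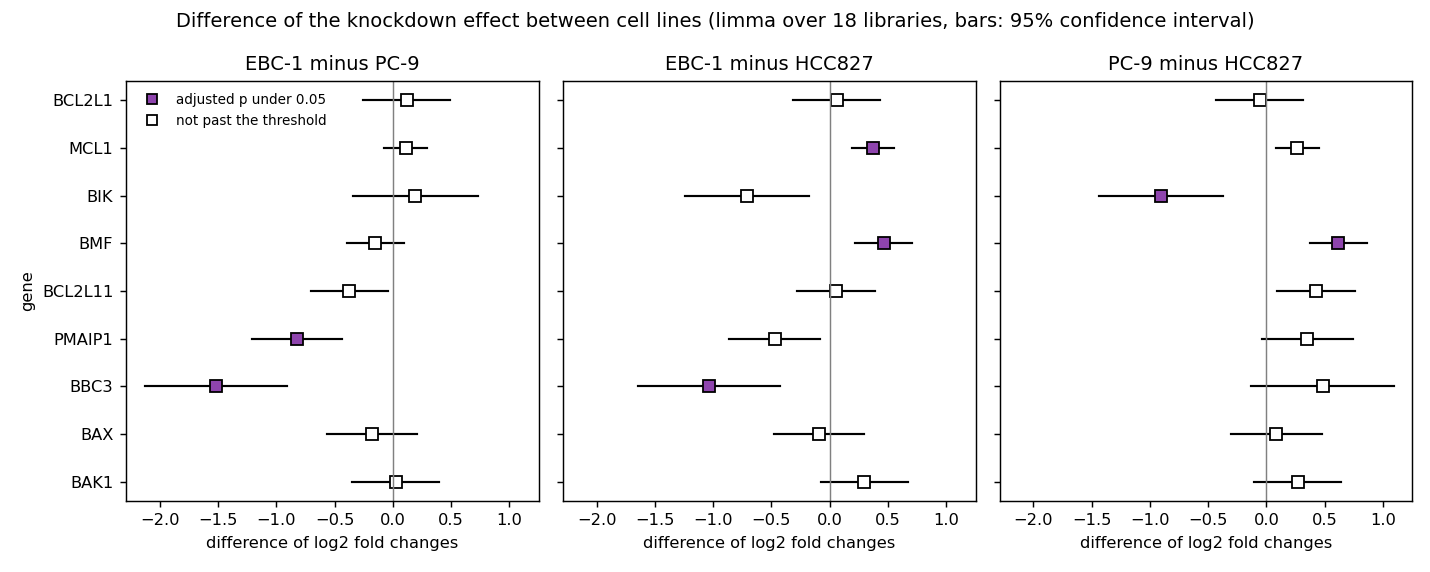
Difference of the shSYK minus nc log2 fold changes between 2 cell lines (x axis) with its 95% confidence interval for the 9 tested members, from a limma fit of 18 libraries; filled squares have an adjusted p under 0.05. BBC3 lies far left of 0 in both panels with EBC-1 first (-1.52 and -1.04), and BMF lies right of 0 in both panels that subtract HCC827 (0.46 and 0.62).

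The balance of BH3-only and survival transcripts was described as the summed FPKM of the 5 BH3-only genes over that of the 3 survival genes. It weights each gene by its abundance and was given no test. In EBC-1 the ratio was 1.05, 1.13 and 0.948 in nc and 0.658, 0.636 and 0.701 in shSYK libraries, so that all 3 shSYK libraries were below all nc libraries. Its mean was 1.04 ± 0.0932 in nc and 0.665 ± 0.0334 in shSYK (SD, n = 3), a log2 difference of -0.65. The summed BH3-only FPKM was 100.2 ± 3.27 in nc and 71.0 ± 4.44 in shSYK, and the summed survival FPKM was 96.3 ± 8.10 in nc and 106.7 ± 3.22 in shSYK.

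In HCC827 the ratio lay the other way. It was 0.497, 0.474 and 0.511 in nc and 0.533, 0.618 and 0.565 in shSYK libraries, without overlap (means 0.494 ± 0.0189 and 0.572 ± 0.0426, SD, n = 3, log2 difference 0.21). BIK alone made up 47.4% of the BH3-only sum in nc and 62.0% in shSYK, while BMF went from 19.2% to 5.27% of it. With each gene weighted equally, as a mean of log2(FPKM + 1), the same comparison gave -0.22, also without overlap, so the direction in HCC827 depended on how the genes were weighted.

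In PC-9 the ratio was 0.413, 0.339 and 0.353 in nc and 0.358, 0.310 and 0.319 in shSYK libraries, with overlapping groups and a log2 difference of -0.16 that turned to 0.09 when MCL1 was left out. It was -0.08 without nc 1 and -0.22 without nc 2. BMF made up 17.4% of the BH3-only sum in nc and 8.31% in shSYK libraries there, and PMAIP1 19.5% and 31.9%. The EBC-1 difference kept its sign without MCL1 (-0.47) and with BAX and BAK1 added to the BH3-only genes (-0.50), and with the latter the HCC827 difference was 0.06 with overlapping groups. Summed FPKM of the effectors was 63.7 ± 1.96 for nc and 55.1 ± 0.176 for shSYK cells of HCC827, 89.7 ± 9.23 and 77.8 ± 2.88 in those of EBC-1, and 82.8 ± 19.1 and 78.4 ± 6.99 in those of PC-9.

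**Figure D4:**
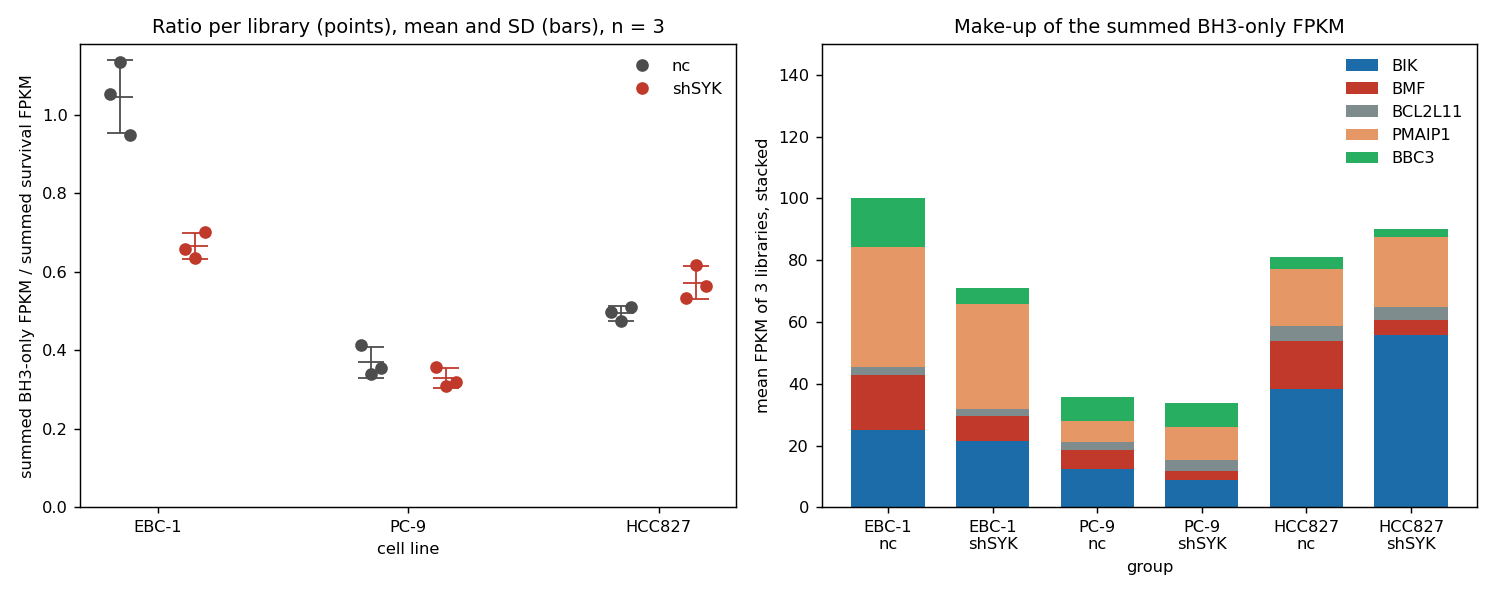
Left, the ratio of summed BH3-only FPKM to summed survival FPKM (linear axis from 0) in each library by cell line, nc in grey and shSYK in red, with mean and SD of 3; right, mean FPKM of the 5 BH3-only genes stacked per group. The ratio is lower in shSYK than nc libraries of EBC-1 (0.665 against 1.04) and higher in HCC827 (0.572 against 0.494), where BIK fills most of the shSYK bar.

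The order of the members by level (FPKM, which is per length) was similar at its ends. BCL2 was last in every group, and MCL1, BAX and BCL2L1 took the first 3 places in every nc group. In EBC-1 nc cells BAX (69.7) led, followed by BCL2L1 (51.9) and MCL1 (44.1), whose ranges overlapped, then PMAIP1 (38.7), then BIK (24.9), BAK1 (20.1) and BMF (17.9), of which neighbours overlapped, and BBC3 (16.0) above BCL2L11 (2.67). In shSYK cells of EBC-1, MCL1 (56.0) overlapped with BAX (56.2), and BMF (7.99) and BBC3 (5.17) were well below BIK (21.4). In PC-9 nc cells MCL1 (60.4) and BAX (57.6) overlapped, as did BIK, BBC3, PMAIP1 and BMF in neighbouring pairs between 12.4 and 6.23. In shSYK cells of PC-9 BMF (2.82) had moved under BCL2L11 (3.35) without overlap.

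HCC827 had MCL1 (101.9), BCL2L1 (62.2), BAX (49.3) and BIK (38.4) in nc cells without overlap between neighbours, and BBC3 (3.75) overlapped with BCL2L11 (4.71). In shSYK cells of HCC827, BIK (55.9) came next after BCL2L1 with overlapping ranges (BCL2L1 58.2). The tables of the 3 lines were computed separately, so levels set across lines are descriptive.

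Genes whose pattern over the 18 libraries was most like that of a member were listed for the members called in at least 2 lines, after centring log2(FPKM + 1) on each line. BMF was most like MLEC (r = 0.973), SLC7A5 (0.973) and IMPA2 (0.968) among 4938 protein-coding genes averaging 5 FPKM or more in every line. SLC7A5, an amino acid transporter subunit, fell in all 3 lines (log2 fold changes -1.29, -1.29 and -2.01 for EBC-1, PC-9 and HCC827, with a limma adjusted p of 0.0406 in PC-9), as did MLEC, a lectin of the endoplasmic reticulum (-0.53, -0.58 and -1.14, limma adjusted p = 0.0450 in PC-9). IMPA2, an inositol monophosphatase, fell in EBC-1 and HCC827 (-1.23 and -1.51), and its PC-9 value of -0.63 did not pass (limma adjusted p = 0.162). BAX was most like TSEN34 (0.979), LRWD1 (0.979) and C7orf50 (0.971). These correlations are over libraries that share the knockdown contrast, depth and base composition, and they are given as a description.

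Around the members, 8 lists of the apoptosis pathway held 97 distinct further genes. Of these lists, 7 are described one by one. In EBC-1, 80 of the 97 genes were tested, of which 22 rose and 18 fell, where 23.1% of all genes tested rose and 21.6% fell. Without nc 1 and without nc 3, 23 and 25 of the pathway genes in all were called. In HCC827, 85 were tested, of which 7 rose and 24 fell, where 17.2% of all genes tested rose and 20.7% fell. In PC-9, 82 were tested and 0 were called by limma, where 2.09% of all genes tested were called. Of the 82, 15 had an unadjusted p under 0.05, and limma-voom on reads also called 0. The fit of all 18 libraries called 10 of them in PC-9, and leaving out nc 1 or nc 2 there called 4 each. The counts of each list below stand beside these shares of all genes. Their medians stand beside 0.009 in EBC-1 and -0.005 in HCC827 over all genes tested.

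A further list held other BCL2 family genes together with BNIP genes, whose products are named for interacting with BCL2 and are not all family members. Of it, 2 of 10 tested genes rose in EBC-1, both of them BNIP genes, and 1 fell, with a median of -0.06. BNIP2 went from 4.74 ± 0.856 to 7.96 ± 0.623 FPKM (SD, n = 3, log2 fold change 0.65, limma adjusted p = 0.00441), and BAD, a BH3-only protein controlled by survival kinases, went from 23.9 ± 3.19 to 14.96 ± 1.56 (-0.64, limma adjusted p = 0.00392). In HCC827, 1 of 12 rose, again a BNIP gene, and 4 fell (median -0.10). The largest fall was that of BCL2L15 at 8.93 ± 0.829 and 4.496 ± 0.345 (-0.85, limma adjusted p = 0.000457).

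Downstream of the members, the genes for mitochondrial release and the apoptosome had 2 of 11 risen and 2 fallen in EBC-1 (median 0.09). CYCS, which encodes cytochrome c, rose from 31.8 ± 3.26 to 51.2 ± 0.642 FPKM (0.68, limma adjusted p = 0.000865), and HTRA2 fell (-0.41, limma adjusted p = 0.0244), a call that ended in 7 of 17 alternatives, rescaling to an equal sum and each of nc 1, nc 3, shSYK 1, shSYK 2 and shSYK 3 left out among them. In HCC827, 0 of these 11 were called by limma, where 2 had an unadjusted p under 0.05 and limma-voom on reads called 3. Of the caspases, the proteases of apoptosis and inflammation, 4 of 7 rose and 1 fell in EBC-1 (median 0.25), led by the inflammatory caspase CASP4 at 3.54 ± 0.280 and 6.67 ± 0.487 (0.76, limma adjusted p = 0.000611), whereas 0 of 8 rose and 3 fell in HCC827 (median -0.10). These caspase counts moved with the processing. Over 17 alternatives, 1 to 5 rose and 0 to 1 fell in EBC-1, and 0 to 1 rose and 1 to 3 fell in HCC827.

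Inhibitors of apoptosis had 2 of 6 risen and 0 fallen in EBC-1 (median 0.30), led by BIRC2, a ubiquitin ligase known as cIAP1, which rose from 6.96 ± 1.40 to 10.8 ± 0.943 FPKM (0.57, limma adjusted p = 0.00971). In HCC827, 1 of 6 rose, BIRC5, the gene of survivin (0.18, limma adjusted p = 0.0331, lost in 8 of 17 alternatives, with all but shSYK 3 of the libraries left out in turn among them). The death receptor pathway, which reaches the BCL2 family through BID, had 3 of 11 risen and 3 fallen in EBC-1 (median 0.07) and 1 of 11 risen and 5 fallen in HCC827 (median -0.14). The TRAIL receptor gene TNFRSF10B fell in EBC-1 from 38.1 ± 2.20 to 28.5 ± 0.804 (-0.41, limma adjusted p = 0.00304), the adaptor kinase RIPK1 rose there (0.27, limma adjusted p = 0.0152, lost in 2 of 17 alternatives, without nc 3 among them), and the TNF receptor gene TNFRSF1A fell in HCC827 from 54.5 ± 5.05 to 42.4 ± 1.02 (-0.35, limma adjusted p = 0.00816, lost in the fit of all 18 libraries).

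Genes that act on the stability or location of MCL1, BIM and BMF proteins had 3 of 10 risen and 0 fallen in EBC-1 (median 0.08) and 1 of 10 risen and 2 fallen in HCC827 (median -0.06). DYNLL2, the dynein light chain that tethers BMF protein, rose in EBC-1 from 36.2 ± 0.319 to 42.2 ± 1.69 FPKM (0.21, limma adjusted p = 0.0240), a call lost in 6 of 17 alternatives, without nc 1, nc 3, shSYK 2 or shSYK 3 among them. USP9X, a deubiquitinase that stabilises MCL1, rose in HCC827 from 7.36 ± 0.179 to 8.70 ± 0.205 (0.21, limma adjusted p = 0.0169, lost in 3 of 17 alternatives, without shSYK 2 among them), and BAG6, a chaperone regulator, fell (-0.35, limma adjusted p = 0.00811, lost in the fit of all 18 libraries and with GC and length trends removed).

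Upstream, 7 of 11 tested transcription factors of BH3-only genes fell in EBC-1 and 2 rose, with a median of -0.48, and over 17 alternatives 4 to 7 of them fell. The largest fall was that of DDIT3 (CHOP, a stress-induced factor upstream of BBC3 and BCL2L11), from 171.3 ± 22.9 to 10.6 ± 1.26 FPKM (log2 fold change -3.88, limma adjusted p = 6.39e-06), which held under 17 of 17 alternatives. HIF1A rose there (0.43, limma adjusted p = 0.0303), a call lost in 9 of 17 alternatives, among them every library left out except nc 2. In HCC827, 4 of 10 fell and 1 rose (median -0.06). FOXO3, a factor known to act on BCL2L11 and BBC3, rose from 8.33 ± 0.165 to 10.7 ± 1.05 (0.32, limma adjusted p = 0.0129).

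**Figure D5:**
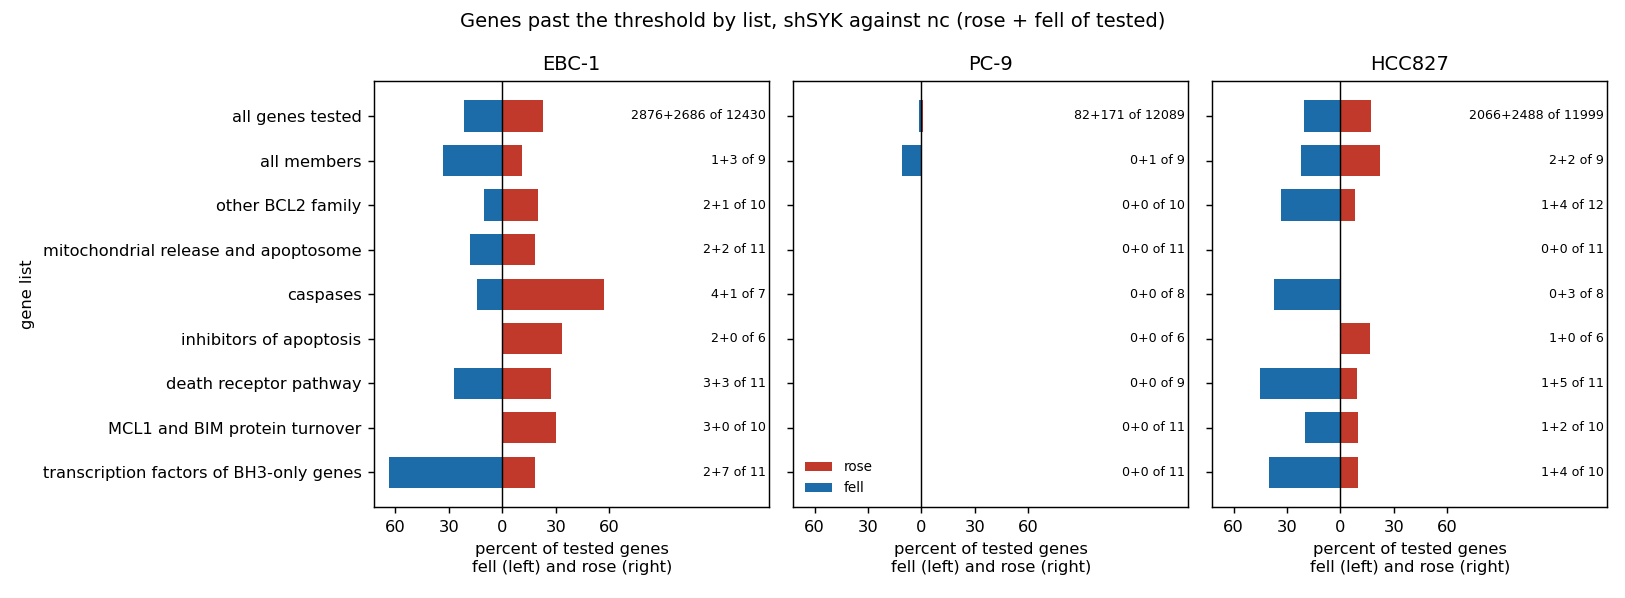
Percent of the tested genes of each list that fell (left, blue) or rose (right, red) in shSYK against nc in each cell line, with the numbers risen, fallen and tested printed at the right; a gene is counted at a limma adjusted p under 0.05. In EBC-1 the transcription factors of BH3-only genes have 7 of 11 fallen and the caspases 4 of 7 risen, and in PC-9 all bars of the 7 pathway lists are empty. Over 17 alternatives, 4 to 7 of these factors fell and 1 to 5 of the caspases rose in EBC-1.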

How the data were processed

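RNA from 18 libraries (3 nc and 3 shSYK in each of EBC-1, PC-9 and HCC827) was extracted with TRIzol and sequenced on an Illumina HiSeq instrument by a commercial provider. The authors deposited FPKM values, 1 table per cell line, with 58302 genes. Alignment was to hg38 according to the study's methods, and the submitters' processing notes name CASAVA and HISAT2 and several builds without giving their roles. The counting program, the annotation release, strandedness and the library factor of the FPKM are not given in the sources used here. Multiplying the deposited FPKM by gene length recovered whole reads (100% of values, tolerance 0.05). Reads give depth and a floor of 3 reads, and cover counting error only.

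Each line was fitted with limma 3.58.1 in R 4.3.3 on log2(FPKM + 1), with a variance trend, over all genes averaging 1 FPKM or more, and p-values were adjusted by Benjamini-Hochberg. Differences between lines came from a limma fit of all 18 libraries. Summaries and figures used Python 3.11.15, numpy 2.4.6, pandas 2.3.3 and matplotlib 3.10.9. Scripts were tested on simulated data. Groups were taken from the labels and no library was left out of the main results. The members and lists were chosen with earlier results of these data known. All 10 members are named, as are the largest rise and fall per pathway list and line among called genes averaging 5 FPKM or more, and the 3 genes most like each member called in at least 2 lines. Alternatives were another pseudocount (0.1), no filter, a filter at 5, rescaling to an equal sum, quantile normalization, removal of the gene length trend, a fit of all 18 libraries, a replicate block, no variance trend, limma-voom on the recovered reads and each library left out. Joint removal of GC and length trends (lowess, span 0.3, GENCODE v44 GC content) was chosen after seeing the data. Replicate numbers were not taken to pair libraries. Some results of the pathway lists, 1 list among them, are not reported here.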

Additional observations from a re-analysis of the deposited data

Results flagged for a closer look

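In 7 tests the effect of SYK knockdown on a member differed between cell lines with a limma adjusted p under 0.05 in the fit of all 18 libraries, each value being the log2 fold change in the first line minus that in the second. More SYK remained in EBC-1 (52.3% of nc) than in PC-9 (32.1%) and HCC827 (32.9%), and its part in these differences was not tested. BBC3 differed between EBC-1 and PC-9 by -1.52 (effects -1.48 and 0.04) and between EBC-1 and HCC827 by -1.04 (effects -1.48 and -0.44). BMF, which fell in every line, differed between EBC-1 and HCC827 by 0.46 and between PC-9 and HCC827 by 0.62. MCL1 differed between EBC-1 and HCC827 by 0.37, and PMAIP1 between EBC-1 and PC-9 by -0.82 (effects -0.18 and 0.64). BIK differed between PC-9 and HCC827 by -0.90, and this difference alone among the 7 was lost in some alternatives (12 of 23).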

How the results depend on the processing

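Of the log2 fold changes of members under the alternatives, 404 kept direction and side of the threshold, 27 lost a call, 8 gained one and 15 reversed. For differences between lines the numbers were 585, 12, 11 and 13. Every one of these reversed values belonged to a test without a call. BCL2L1 in EBC-1 was 0.094 after rescaling to an equal sum, 0.055 after quantile normalization, 0.054 with limma-voom, 0.17 with GC and length trends removed, and -0.155 to 0.064 with a library left out. BCL2L11 in EBC-1 was 0.005 after rescaling and -0.173 to 0.032 with a library left out. MCL1 in HCC827 was 0.026 after rescaling, 0.032 after quantile normalization and 0.031 with limma-voom, and BCL2L1 in HCC827 was 0.068 with GC and length trends removed. With a library left out, PC-9 values ranged from -0.212 to 0.254 for BBC3, -0.298 to 0.043 for BAX and -0.042 to 0.248 for BAK1.

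Of the differences between lines, that of BAX for PC-9 minus HCC827 was -0.004 after rescaling and -0.087 to 0.253 with a library left out. With a library left out, EBC-1 minus PC-9 ranged from -0.016 to 0.27 for BCL2L1, -0.031 to 0.414 for BIK and -0.133 to 0.157 for BAK1, EBC-1 minus HCC827 from -0.06 to 0.158 for BCL2L1 and -0.039 to 0.173 for BCL2L11, and PC-9 minus HCC827 from -0.209 to 0.076 for BCL2L1. Over all genes, 1833 to 4597 differed for EBC-1 minus PC-9 (2509 with all libraries) and 647 to 2401 for PC-9 minus HCC827 (951), the highest count each time without PC-9 nc 1.

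For all genes, 5562 were called in EBC-1 and 3579 with a filter at 5. In PC-9, 253 were called, 47 with no filter, 491 after rescaling, 505 after quantile normalization, 1354 in the fit of all 18 libraries, 480 with limma-voom, 1371 with GC and length trends removed and 7 (without shSYK 1) to 621 (without nc 1) with a library left out. Members called in PC-9 were 1, and 0 with no filter or a filter at 5, 3 in the fit of all 18 libraries, 2 with GC and length trends removed and 0 to 2 with a library left out. In HCC827 they were 4, and 2 in the fit of all 18 libraries, 2 with GC and length trends removed and 2 to 5 with a library left out. Pathway genes called in PC-9 were 0, and 1 with a filter at 5, 1 after rescaling, 1 after quantile normalization, 10 in the fit of all 18 libraries, 14 with GC and length trends removed and 0 to 4 with a library left out. In EBC-1 they were 40, and 23 (without nc 1) to 39 with a library left out. In HCC827 they were 31, and 19 in the fit of all 18 libraries.

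For the balance, the EBC-1 difference was -0.466 without MCL1 and -0.501 with BAX and BAK1, the PC-9 difference 0.091 without MCL1, and the HCC827 difference -0.219 as a mean of log2(FPKM + 1) and 0.062 with BAX and BAK1.

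The deviations of same-numbered nc and shSYK libraries had correlations of both signs in EBC-1 (-0.219 to 0.034) and PC-9 (-0.121 to 0.325). In HCC827 they were all positive but weak (0.002 to 0.063). With the replicate number as a block, 4326, 172 and 4111 genes and 3, 1 and 4 members were called in EBC-1, PC-9 and HCC827. Among members the block ended the call of BAX in EBC-1 (limma adjusted p = 0.0646) and that of BIK for PC-9 minus HCC827 (0.0647).

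Groups of 3 libraries, a single shRNA clone and 0 to 2 reads for BCL2 in HCC827 limit the precision.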
